A study of Rattus norvegicus with 6 samples.

Results

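The complement and coagulation factors described here are 43 genes of the plasma protease cascades, taken by gene symbol. Of these, 37 had a probe under that symbol in the platform annotation, each a single probe, and all 37 passed the filter on dim probes, among 9193 named genes tested in all. C3, C5, C8b, Masp1, F9 and Fga were not analysed here. RNA came from non-tumor liver of male Wistar rats, 1 Illumina bead array per rat. All rats were given the same course of diethylnitrosamine (DEN, a liver carcinogen), injected once a week at 50 mg/kg over 18 weeks. The 3 EGCG rats (EGCG_228, EGCG_234 and EGCG_236) drank 0.02% epigallocatechin gallate, the main catechin of green tea, on 5 days a week from week 13 to week 18. The 3 water rats (water_224, water_227 and water_237) drank water over the same weeks, and every rat was killed in week 19, after 1 week of washout. The age of the rats was not given in the sources used here, and no rat without DEN was part of the comparison.

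Complement and coagulation are cascades of blood proteases that cut and activate one another. The classical pathway starts when C1q binds antibody, the lectin pathway when mannose-binding lectins bind sugars on microbes, and the alternative pathway runs through factors B and D and properdin; all lead to the terminal components that form the membrane attack complex. Clotting starts from tissue factor and factor VII or from the contact system, and ends with thrombin cutting fibrinogen to fibrin, which plasmin dissolves. Hepatocytes make most of these proteins, while C1q and properdin come mainly from macrophages and other myeloid cells and factor D mainly from fat cells and macrophages.

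Among the cascade factors, the kininogen Kng1 and the complement protease Cfd were the lowest with EGCG and the mannose-binding lectin Mbl2 was the highest, and none of the 37 passed the test across all probes. Of the 37 measured factors, 0 rose and 0 fell (limma, adjusted p under 0.05, smallest adjusted p = 0.144), where 0.566% of all genes tested passed, 0.12% higher and 0.446% lower with EGCG. At an unadjusted p under 0.05, 8 factors stood out, 3 higher and 5 lower, which is 21.6% of the factors against 11.6% of all genes (5.28% higher and 6.31% lower). The values of the EGCG rats and the water rats did not overlap for 7 factors (18.9%), against 16.5% of all genes. Of these 7, 3 were higher with EGCG (8.11% of the factors, against 8.25% of all genes) and 4 were lower (10.8%, against 8.23%). The median log2 difference was 0.07 over the factors and 0.0037 over all genes, with 24 factors above 0 and 13 below. For 31 factors the 95% interval of the difference lay within 1 log2 unit on either side of 0, and the other 6 were Mbl2, C2, Cfd, C6, Kng1 and Fgb. Here and below, levels are log2 normalized intensities of single probes, a difference is EGCG minus water on that scale, and levels of different probes are not compared. Leaving out EGCG_236 brought 1 factor past the threshold, Mbl2 (0.94, limma adjusted p = 0.029), where 1.71% of all genes passed. Leaving out water_237 brought another, Kng1 (-2.08, adjusted p = 0.00256), where 0.37% of all genes passed.

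**Figure D1:**
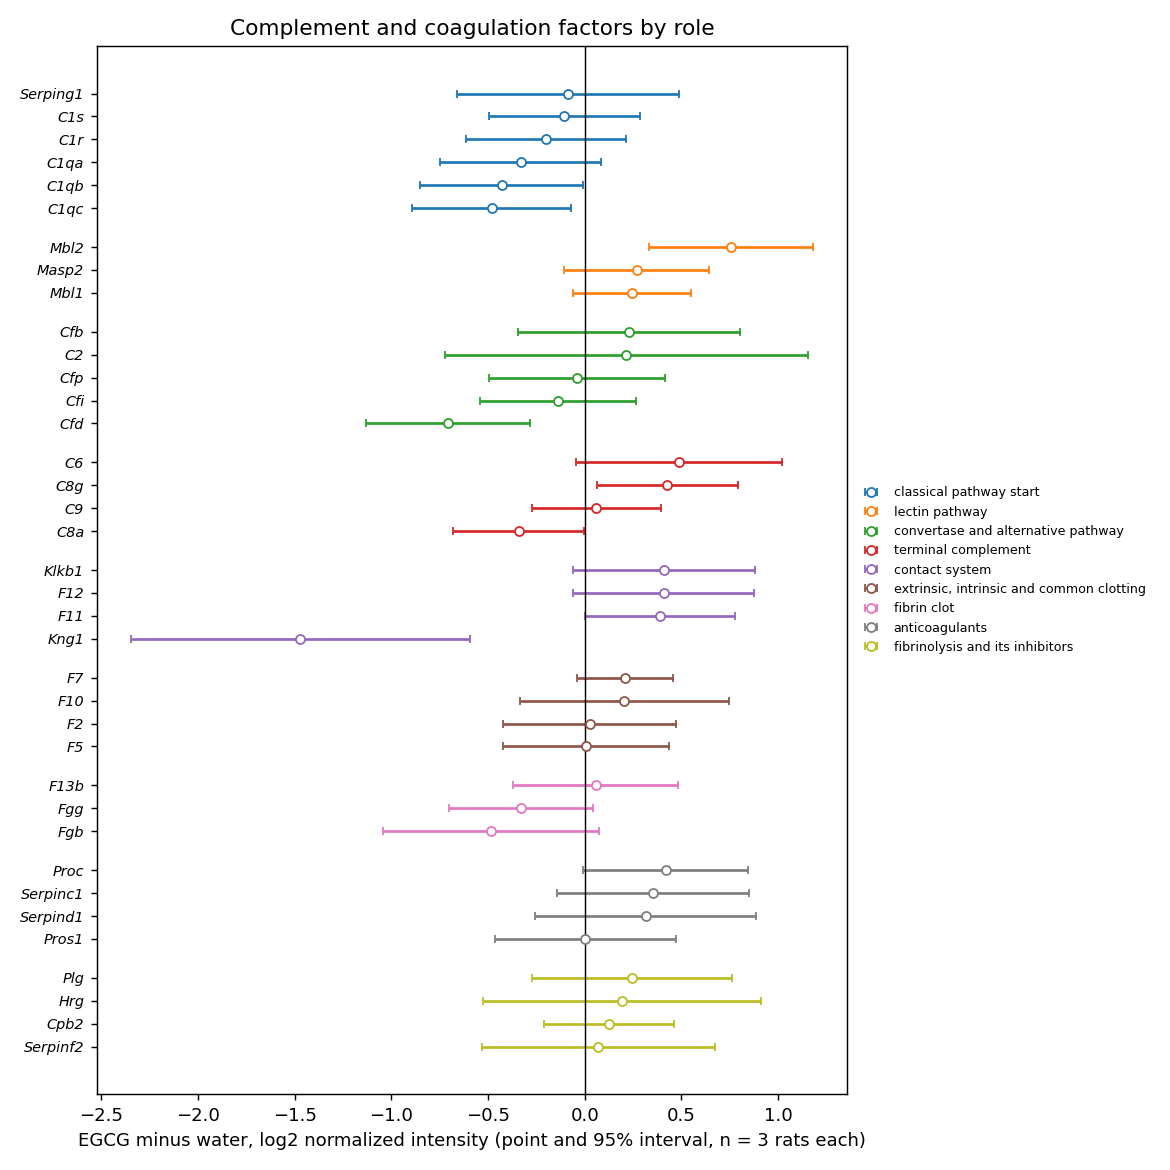
The plot gives the log2 difference (EGCG minus water, horizontal axis) of each of the 37 measured factors, grouped by role, with its 95% interval from limma over 3 rats in each group; open points did not pass the threshold. All points are open, Kng1 lies farthest left at -1.47 and Mbl2 farthest right at 0.76.

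The promoters below are those of the factors with the largest difference on each side, Kng1 and Mbl2, of Fgb, which held more of the searched motifs than the other promoters shown, and of C1qb, a macrophage gene. RefSeq promoters (250 bases before to 50 after the start of the gene) matched 26 of the 37 measured factors. Both strands were searched for TATAAA, the core promoter box, TTGCNNAA (C/EBP, a liver and acute-phase factor), GTTAAT (a part of the HNF1 motif, HNF1 being a hepatocyte factor), TTCNNNGAA (STAT), GAGGAAG (PU.1, a myeloid factor) and CTGGGAA (the element that answers to interleukin 6 in the rat A2m gene). Capitals mark the matches, and no match overlaps another.
Kng1 (GRCr8, chr11:91340099-91340398, minus strand): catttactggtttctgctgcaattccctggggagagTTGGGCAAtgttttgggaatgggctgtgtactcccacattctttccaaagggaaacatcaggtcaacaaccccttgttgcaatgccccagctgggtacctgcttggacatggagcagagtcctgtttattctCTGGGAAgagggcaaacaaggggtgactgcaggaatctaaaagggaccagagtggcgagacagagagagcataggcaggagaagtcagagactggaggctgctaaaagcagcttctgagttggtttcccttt
Mbl2 (GRCr8, chr1:237430793-237431092, plus strand): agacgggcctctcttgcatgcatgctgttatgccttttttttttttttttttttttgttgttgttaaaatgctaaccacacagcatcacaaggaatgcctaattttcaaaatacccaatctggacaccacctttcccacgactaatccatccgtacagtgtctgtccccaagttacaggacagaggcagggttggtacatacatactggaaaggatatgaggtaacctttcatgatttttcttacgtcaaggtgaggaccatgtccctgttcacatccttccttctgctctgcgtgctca
Fgb (GRCr8, chr2:170700826-170701125, minus strand): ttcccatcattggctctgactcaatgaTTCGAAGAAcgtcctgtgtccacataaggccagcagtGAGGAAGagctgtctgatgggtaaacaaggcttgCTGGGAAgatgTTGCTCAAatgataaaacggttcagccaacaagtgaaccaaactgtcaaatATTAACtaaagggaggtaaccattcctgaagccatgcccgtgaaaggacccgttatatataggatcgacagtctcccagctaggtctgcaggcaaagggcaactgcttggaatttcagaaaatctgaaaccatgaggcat
C1qb (GRCr8, chr5:154407778-154408077, minus strand): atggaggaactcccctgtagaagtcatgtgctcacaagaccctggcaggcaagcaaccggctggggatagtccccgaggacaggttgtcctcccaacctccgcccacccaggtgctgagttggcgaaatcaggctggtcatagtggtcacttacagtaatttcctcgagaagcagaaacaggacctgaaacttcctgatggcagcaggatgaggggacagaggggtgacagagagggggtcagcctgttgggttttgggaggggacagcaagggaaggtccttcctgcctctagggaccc
Kng1 held 2 matches, to the C/EBP and interleukin motifs, and Fgb held 5, while Mbl2 and C1qb held 0. The C/EBP letters were in 7 of the 26 factor promoters (26.9%) and in 10.5% of all 27457 promoters. The HNF1 letters were in 6 (23.1%, against 7.37% of all), the STAT letters in 4 (15.4%, against 8.68%) and the interleukin letters in 6 (23.1%, against 10.9%). The PU.1 letters were in 3 (11.5%, against 12.4%) and the core promoter box in 2 (7.69%, against 14.3%). These matches describe the letters of these windows and were not tied to the differences below.

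The spread between rats of one group was larger than the difference between the groups for most factors. In 31 of the 37 factors, the range within the EGCG rats or within the water rats exceeded the size of the difference. The same count over all genes was not made, so it is not known whether the factors differ from other genes in this. The low rats were mostly the same ones: EGCG_236 was the lowest EGCG rat for 31 factors and water_237 the lowest water rat for 28, and both held for 23. Over all genes tested, EGCG_236 was the lowest of its group for 38.3% and water_237 for 33.4%. Relative to the mean of the water rats, the median factor stood at 0.24 in EGCG_228, 0.26 in EGCG_234 and -0.27 in EGCG_236, and at 0.18 in water_224, 0.07 in water_227 and -0.27 in water_237. By this median EGCG_228 and EGCG_234 lay above every water rat and EGCG_236 level with the lowest one.

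Without EGCG_236, 22 factors had groups that did not overlap, 18 of them higher with EGCG, where 34.2% of all genes had such groups in either direction and 18.0% were higher. In that fit 16 factors had an unadjusted p under 0.05 (15.9% of all genes did). Without water_237 the count of factors whose groups did not overlap was 12 (26.6% of all genes), and without water_227 it was 11 (25.7%). Mean bead intensity before normalization was 464, 479 and 449 for EGCG_228, EGCG_234 and EGCG_236, and 531, 505 and 382 for water_224, water_227 and water_237. water_237 was thus the dimmest array, and the part of array brightness in the order of the rats was not tested. With median scaling in place of quantile normalization, 1 factor had groups that did not overlap (12.2% of all genes), and with cyclic loess 3 did (16.3%).

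Other hepatocyte genes did not all rank the rats this way. Hnf4a, a nuclear receptor that controls many liver genes, had 7.22, 6.91 and 6.48 in EGCG_228, EGCG_234 and EGCG_236, and 7.25, 7.08 and 6.38 in water_224, water_227 and water_237. Its lowest rat in each group was the one that was lowest for most cascade factors. The Hnf4a probe was dim, however, with a mean bead intensity of 152, near the array medians of 112 to 120.5. Its values in EGCG_236 and water_237 lay close to the filter level of 6.39. Alb, serum albumin, had 14.83, 14.99 and 15.32 in the EGCG rats in the same order, and 14.79, 14.83 and 15.32 in the water rats. Albumin was thus highest in EGCG_236 and water_237. Its mean bead intensity of 35210 was near the array maxima of 39439 to 41359, where the order of rats is less certain. Among the other markers, Tf was also highest in EGCG_236 and water_237 within their groups. Ttr, Ahsg and Serpina1 were lowest in both, and Tat, Cps1 and Asgr1 were neither highest in both nor lowest in both. Of 9 measured hepatocyte markers, 0 passed the threshold, and their median difference was 0.02. In whole liver tissue, fewer cells of a type and less RNA per cell cannot be told apart.

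**Figure D2:**
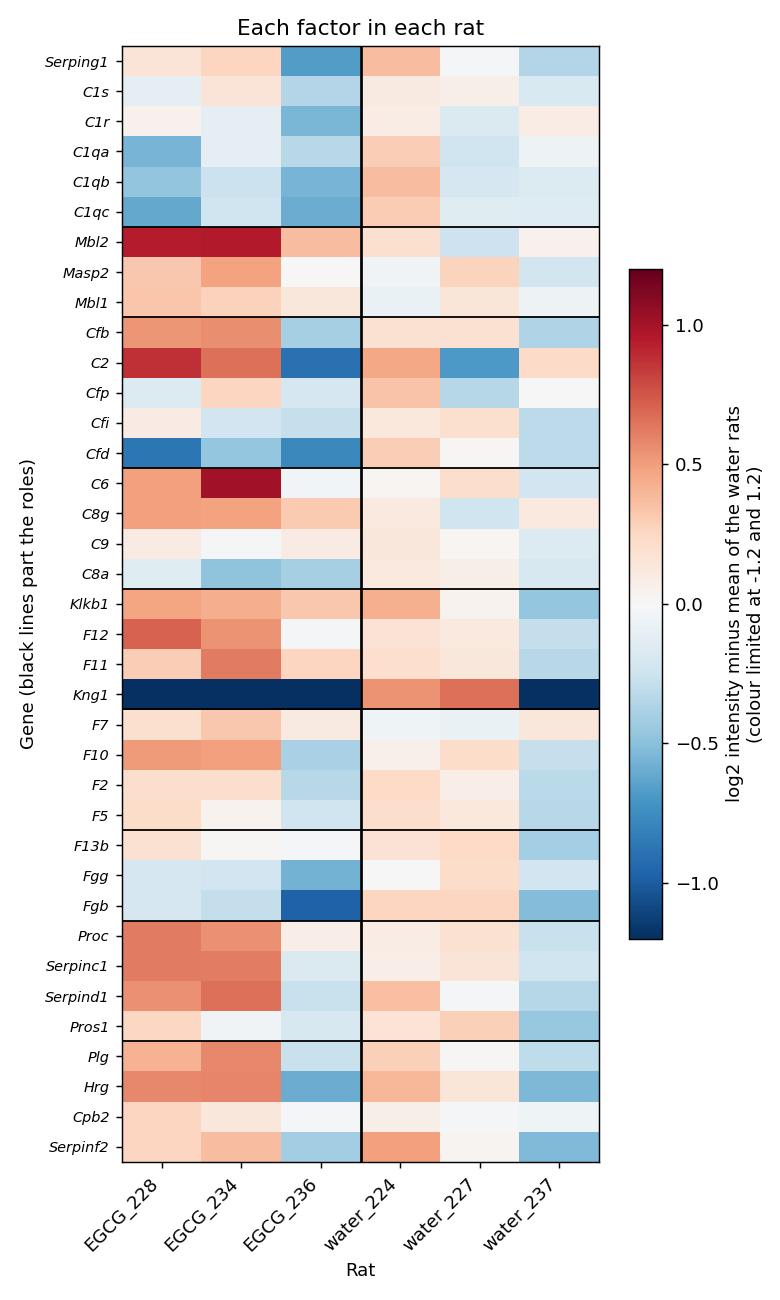
Each row is a factor and each column a rat; colour is the log2 intensity minus the mean of the 3 water rats, limited at -1.2 and 1.2, with black lines between roles and between the EGCG rats on the left and the water rats on the right. The columns of EGCG_236 and water_237 are blue for most rows, and the Kng1 row is dark blue in all 3 EGCG rats and in water_237.

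The start of the classical pathway was measured with 6 genes, all of them below 0 and none past the threshold (median difference -0.27). C1qa, C1qb and C1qc encode the chains of C1q, the antibody-binding subunit. C1qc had 10.84, 11.22 and 10.87 in the EGCG rats and 11.76, 11.31 and 11.30 in the water rats, a difference of -0.48 (SE 0.19, limma adjusted p = 0.39). C1qb had 11.43, 11.65 and 11.34 with EGCG and 12.27, 11.70 and 11.73 with water (-0.43, SE 0.19, adjusted p = 0.479). For both genes every EGCG rat lay below every water rat, by a narrow margin, and water_224 stood above the rest. C1qa differed by -0.33 (adjusted p = 0.615), with groups that overlapped. C1r and C1s, the proteases that C1q activates, differed by -0.20 and -0.11 (adjusted p = 0.796 and 0.907), and Serping1, their inhibitor, by -0.09 (adjusted p = 0.953). Those 3 genes are made by hepatocytes and their groups overlapped.

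Markers of macrophages were measured beside the C1q genes. Of 11 listed markers, 7 were measured and 0 passed the threshold, with a median difference of -0.12. Their mean level ran from 8.53 to 8.83 in the EGCG rats and from 8.63 to 8.86 in the water rats. Cd14, an endotoxin receptor, differed by -0.69 (limma adjusted p = 0.23) and Fcer1g, an Fc receptor chain, by -0.44 (adjusted p = 0.427), while the scavenger receptors Marco and Cd163 differed by 1.03 (adjusted p = 0.131) and 0.04 (adjusted p = 0.972). The markers of the cells that make C1q therefore lay on both sides of 0, and their part in the C1q values was not tested. Over the 5 factors of mainly non-hepatocyte origin (C1qa, C1qb, C1qc, Cfd and Cfp), all differences were below 0, with a median of -0.43. Over the 32 factors of hepatocyte origin, 24 were above 0 and 8 below, with a median of 0.20. That median was not shared by all EGCG rats. Relative to the mean of the water rats, the median of the 32 was 0.28 in EGCG_228, 0.35 in EGCG_234 and -0.25 in EGCG_236. In water_224, water_227 and water_237 it was 0.17, 0.12 and -0.28.

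The lectin pathway genes were all above 0, with Mbl2 the highest of all 37 factors. Mbl2, the mannose-binding lectin C of rodents, had 9.35, 9.35 and 8.77 in the EGCG rats and 8.59, 8.15 and 8.46 in the water rats. All EGCG rats exceeded all water rats, with EGCG_236 closest to the water rats. The difference was 0.76 (1.69-fold, SE 0.19, 95% interval 0.33 to 1.18), with a limma adjusted p = 0.144. Besides the fit that left out EGCG_236, it passed when arrays were weighted by quality (0.89, adjusted p = 0.0326), where 1.53% of all genes passed. Over all 17 alternatives its difference ran from 0.63 to 0.94 and its adjusted p from 0.029 to 0.507. Mbl1, the mannose-binding lectin A, had 8.60, 8.54 and 8.40 with EGCG and 8.19, 8.41 and 8.20 with water (0.25, SE 0.14, adjusted p = 0.61). EGCG_236 fell just below water_227 there, so that the groups overlapped. Masp2, the protease that the lectins activate, differed by 0.27 (adjusted p = 0.66).

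Among the genes of the C3 convertases and the alternative pathway, Cfd stood apart. Cfd, factor D or adipsin, is the protease that cuts factor B. It had 9.53, 9.94 and 9.63 in the EGCG rats and 10.70, 10.42 and 10.09 in the water rats, a difference of -0.71 (1.63-fold lower, SE 0.19, 95% interval -1.13 to -0.28, limma adjusted p = 0.183). All EGCG rats were lower than all water rats. Cfb, factor B itself, had 13.68, 13.71 and 12.76 with EGCG and 13.33, 13.33 and 12.79 with water (0.23, SE 0.26, adjusted p = 0.841). EGCG_236 and water_237 were close to each other and below the other rats of their groups. C2, the classical counterpart of factor B, ran from 10.43 to 12.20 in the EGCG rats and from 10.63 to 11.78 in the water rats, among the widest ranges of the set, and differed by 0.22 (adjusted p = 0.92). Cfp, properdin, which holds the alternative convertase together, and Cfi, factor I, which inactivates C3b, differed by -0.04 and -0.14 (adjusted p = 0.976 and 0.879).

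Of the fat and pancreas markers measured beside Cfd, 4 of 10 were above the filter and 0 passed the threshold. Adipoq, adiponectin, had 6.53, 6.24 and 6.58 with EGCG and 6.61, 6.54 and 6.57 with water, close to the filter level of 6.39. The mean level of the list ran from 6.72 to 6.95 in the EGCG rats and from 7.18 to 7.65 in the water rats, the 2 largest differences being those of the pancreatic enzymes Cpa1 (-1.23, limma adjusted p = 0.16) and Cela1 (-0.70, adjusted p = 0.239). The part of such tissue in the Cfd value was not tested.

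The terminal components lay on both sides of 0. C8g, the lipocalin-like gamma chain of C8, had 11.62, 11.61 and 11.44 in the EGCG rats and 11.25, 10.90 and 11.25 in the water rats, a difference of 0.43 (1.35-fold, SE 0.16, limma adjusted p = 0.387). All EGCG rats were higher than all water rats. C8a, the alpha chain that inserts in the membrane, had 8.57, 8.23 and 8.31 with EGCG and 8.83, 8.78 and 8.52 with water (-0.34, SE 0.15, adjusted p = 0.488). Here EGCG_228 lay above water_237, and the chains of C8 thus had differences of opposite sign. C6 differed by 0.49 (adjusted p = 0.533), with EGCG_234 far above the rest at 10.11 and the other 5 rats between 8.87 and 9.59. C9, the pore-forming component, differed by 0.06 (95% interval -0.27 to 0.39, adjusted p = 0.938).

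In the contact system, 3 proteases were above 0 and the cofactor Kng1 was far below. Kng1, a kininogen, the carrier from which kallikrein releases bradykinin, had 10.42, 10.11 and 10.14 in the EGCG rats and 12.24, 12.35 and 10.49 in the water rats. The EGCG rats lay close together (SD 0.17, n = 3), while water_237 was almost as low as they were and the other water rats were far higher (SD 1.04, n = 3). The difference was -1.47 (2.77-fold lower, SE 0.40, 95% interval -2.35 to -0.59, limma adjusted p = 0.181). It rested on water_224 and water_227: without water_237 it was -2.08 (adjusted p = 0.00256), and over the 6 omissions of a rat it ran from -2.08 to -1.14. With all 6 rats and a robust intensity trend in limma, the unadjusted p for Kng1 rose from 0.00361 to 0.0363 and the adjusted p to 0.445. The RefSeq table lists 3 kininogen genes in the rat, Kng1, Kng2 and Kng2l1, which are similar in sequence, so that the probe may read more than one of them. F11, the protease factor XI, had 8.35, 8.68 and 8.31 with EGCG and 8.26, 8.19 and 7.72 with water (0.39, SE 0.18, adjusted p = 0.485). All EGCG rats were higher than all water rats, with EGCG_236 only just above water_224. F12, factor XII, and Klkb1, plasma prekallikrein, both differed by 0.41 (adjusted p = 0.562 each), with groups that overlapped. The sizes depended on single rats: without water_237 Klkb1 was 0.18, F11 0.23 and F12 0.27, and without EGCG_236 F12 was 0.62; without water_224 Klkb1 was 0.62.

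**Figure D3:**
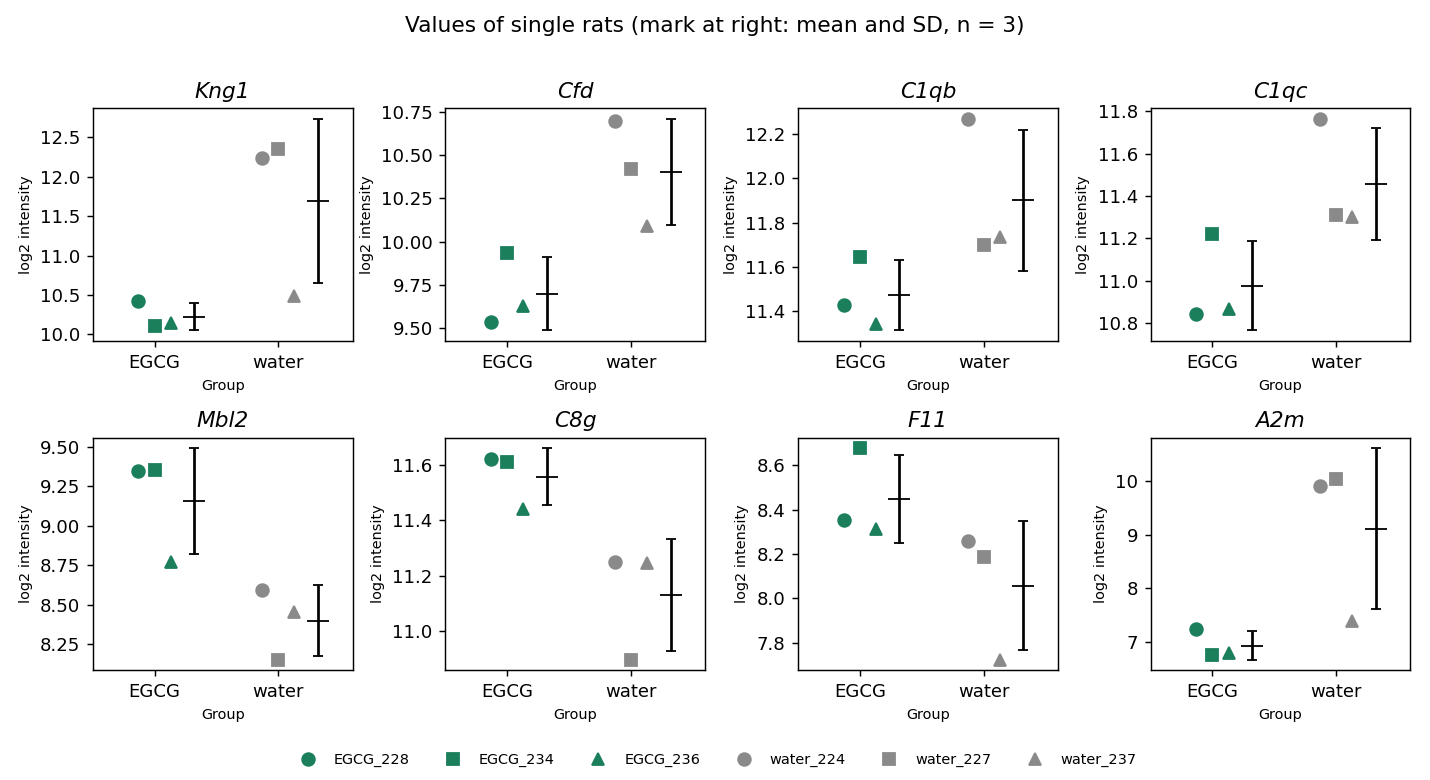
Each panel gives the log2 intensity of 1 gene (vertical axis, scaled to that gene) in the 3 EGCG rats (green) and the 3 water rats (grey), 1 symbol per rat, with the group mean and SD at the right of each group. The 7 factors whose groups did not overlap are shown with A2m, in which water_224 and water_227 stand at 9.91 and 10.04 and water_237 at 7.38, as in the Kng1 panel.

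The clotting proteases and their cofactor differed little. F7, factor VII, had 6.98, 7.10 and 6.89 in the EGCG rats and 6.73, 6.70 and 6.91 in the water rats (0.21, SE 0.11, limma adjusted p = 0.587). Its mean bead intensity before background correction was 144, near the array medians of 112 to 120.5. F10, factor X, had 10.02, 10.003 and 9.12 with EGCG and 9.56, 9.73 and 9.23 with water (0.21, SE 0.24, adjusted p = 0.855). EGCG_236 was the lowest of the 6 rats. F2, prothrombin, and F5, the cofactor of factor X, differed by 0.03 (95% interval -0.42 to 0.47) and 0.01 (-0.42 to 0.43), with adjusted p = 0.984 and 0.997.

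Both measured fibrinogen chains were below 0. Fgb, the beta chain, had 14.18, 14.10 and 13.41 in the EGCG rats and 14.64, 14.64 and 13.86 in the water rats, a difference of -0.48 (SE 0.25, limma adjusted p = 0.568). Fgg, the gamma chain, had 14.90, 14.87 and 14.53 with EGCG and 15.10, 15.32 and 14.87 with water (-0.33, SE 0.17, adjusted p = 0.556). For both chains every EGCG rat lay below water_224 and water_227. EGCG_228 was above water_237 for both, and EGCG_234 was above it for Fgb and level with it for Fgg, so that the groups overlapped. The size depended on the normalization: Fgg was -0.14 with cyclic loess, -0.18 with median scaling and -0.17 in the authors' normalized table, and Fgb was -0.32 with cyclic loess. F13b, the carrier subunit of the clot-stabilizing factor XIII, differed by 0.06 (adjusted p = 0.96).

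The anticoagulants were above 0 and none passed. Proc, protein C, which inactivates factors V and VIII, had 10.47, 10.39 and 9.93 in the EGCG rats and 9.93, 10.02 and 9.58 in the water rats, a difference of 0.42 (SE 0.19, limma adjusted p = 0.498). Serpinc1, antithrombin, had 13.70, 13.69 and 12.91 with EGCG and 13.16, 13.24 and 12.85 with water (0.35, SE 0.22, adjusted p = 0.66). In both genes EGCG_228 and EGCG_234 exceeded all water rats and EGCG_236 did not. Serpind1, heparin cofactor II, differed by 0.31 (adjusted p = 0.759) and Pros1, protein S, the cofactor of protein C, by 0.0031 (95% interval -0.46 to 0.47). The 5 measured vitamin K dependent factors (F2, F7, F10, Proc and Pros1) had a median difference of 0.21, all above 0 and 0 past the threshold.

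Fibrinolysis genes had the smallest p-values at Plg and Cpb2, neither near the threshold. Plg, plasminogen, had 13.51, 13.66 and 12.82 in the EGCG rats and 13.37, 13.10 and 12.78 in the water rats, a difference of 0.24 (SE 0.23, limma adjusted p = 0.804). Cpb2, a carboxypeptidase that protects the clot from plasmin, had 12.65, 12.53 and 12.38 with EGCG and 12.46, 12.38 and 12.34 with water (0.13, SE 0.15, adjusted p = 0.856). The groups overlapped in both. Hrg, a histidine-rich glycoprotein that binds plasminogen and heparin, differed by 0.19 and Serpinf2, the plasmin inhibitor, by 0.07 (adjusted p = 0.907 and 0.966); Hrg was 12.41 in EGCG_236 and 12.46 in water_237, and between 13.15 and 13.59 in the other 4 rats.

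Several of these genes lie side by side in the rat genome. In the order of protein-coding genes in RefSeq's GRCr8 annotation, 7 pairs of measured factors were adjacent or parted only by another factor of the set. Klkb1 and F11 differed by 0.41 and 0.39, F10 and F7 by 0.21 and 0.21, and C2 and Cfb by 0.22 and 0.23. On the other side of 0, C1r and C1s differed by -0.20 and -0.11, C1qb, C1qc and C1qa, which form 2 of the pairs, by -0.43, -0.48 and -0.33, and Fgg and Fgb by -0.33 and -0.48. The gap within a pair ran from 0.0041 to 0.15 with a median of 0.05, and over all 666 pairs of measured factors the median gap was 0.34. In each pair the gap was smaller than the standard error of either gene (0.11 to 0.43). Near-equal values depended on having all 6 rats. C2 and Cfb took opposite signs without EGCG_228 (-0.11 and 0.08), EGCG_234 (-0.0042 and 0.06) or water_227 (-0.13 and 0.32, a gap of 0.45). F10 and F7 differed by 0.50 and 0.27 without EGCG_236, and C1r and C1s took opposite signs there (-0.03 and 0.0147). Over the 6 omissions of a rat, the median gap ran from 0.06 to 0.20, and 6 or 7 of the 7 pairs shared a sign. The pairs were looked for after the differences had been seen, the pairs share their 6 rats, and most neighbours also share a cell type and a cascade.

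**Figure D4:**
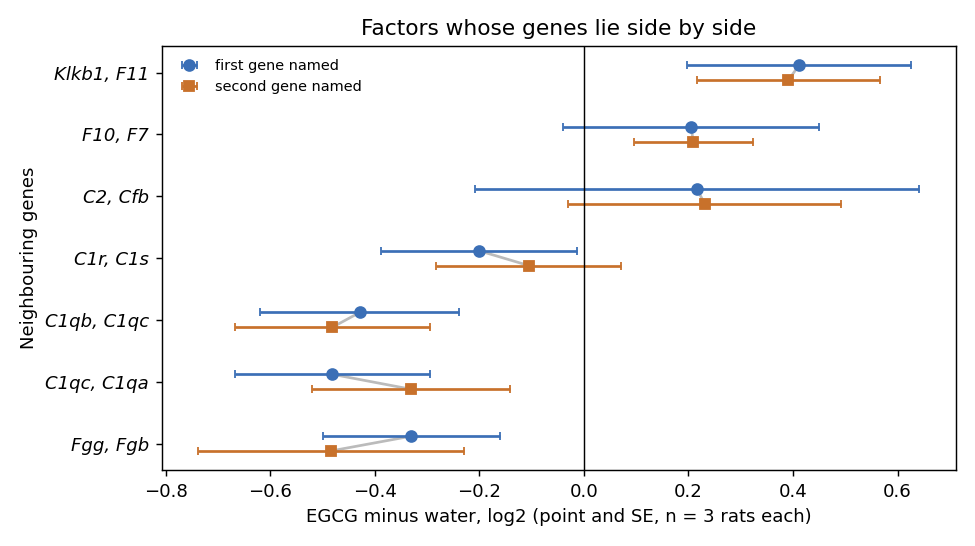
Each row is a pair of neighbouring genes, with the log2 difference (EGCG minus water, horizontal axis) and SE of the first gene as a blue circle and of the second as an orange square, over 3 rats in each group. With all 6 rats, the gap within each of the 7 pairs is at most 0.15 and both genes lie on the same side of 0; with a rat left out, C2 and Cfb differ by up to 0.45 and take opposite signs in 3 of 6 omissions, and C1r and C1s in 1.

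The receptors, regulators and inhibitors around these cascades were described from a list of 73 other symbols, of which 46 were measured, 3 lay below the filter and 24 were not analysed here. Of the 46, 2 fell with EGCG and 0 rose (limma, adjusted p under 0.05); the median difference was -0.15, with 13 above 0 and 33 below, against 0.0037 over all genes. Over all genes tested, 0.446% fell and 0.12% rose. Both genes that fell act at the vessel wall. F2r, the thrombin receptor PAR1, had 8.19, 8.41 and 8.18 in the EGCG rats and 9.60, 9.21 and 9.32 in the water rats, and fell by 1.12 (2.17-fold, SE 0.16, adjusted p = 0.0189). Vwf, von Willebrand factor, which ties platelets to the wall and carries factor VIII, had 7.76, 7.86 and 7.58 with EGCG and 8.77, 8.46 and 8.50 with water, and fell by 0.84 (SE 0.14, adjusted p = 0.0332). Neither gene had overlapping groups. F2r missed the threshold without EGCG_228 (adjusted p = 0.0678), and median scaling gave it 0.0544. Vwf missed it in 5 of the 6 omissions of a rat, the exception being EGCG_236 (0.0781 to 0.13), and median scaling gave it 0.117. Leaving out EGCG_236 brought the count to 5 (with Colec12, F3 and Tfpi), where 1.71% of all genes passed. Without EGCG_228 it was 0, where 0.0869% of all genes passed. F2r alone passed without EGCG_234 (0.0979% of all genes), water_224 (0.522%) or water_227 (0.12%), and F2r and A2m passed without water_237 (0.37%). With median scaling 0 of the 46 passed, against 0.457% of all genes.

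Of the coagulation cofactors, inhibitors and fibrinolysis genes named by their p-values, none but Vwf passed. Procr, the endothelial receptor of protein C, had 7.61, 7.49 and 7.22 in the EGCG rats and 8.13, 8.30 and 8.06 in the water rats (-0.73, SE 0.14, limma adjusted p = 0.0711). F3, tissue factor, had 6.75, 6.40 and 7.11 with EGCG and 7.59, 7.28 and 7.78 with water (-0.80, SE 0.19, adjusted p = 0.112; -0.99 and 0.0329 without EGCG_236). In both, every EGCG rat was below every water rat. The F3 probe was dim, with a mean bead intensity of 176 over all rats and 133 in the EGCG rats. Its difference was -0.67 without background correction and -1.07 with an offset of 16. Anxa5, a phospholipid-binding annexin, differed by -0.79 (adjusted p = 0.0836), Anxa2, a surface receptor of plasminogen, by -0.66 (adjusted p = 0.123) and Plat, tissue plasminogen activator, by -0.72 (adjusted p = 0.348). Plat had 8.11, 7.98 and 8.24 in the EGCG rats and 9.55, 8.44 and 8.48 in the water rats, and without water_224, the one high rat, the difference was -0.35. Thbd, thrombomodulin, and Tfpi, tissue factor pathway inhibitor, chosen after their values were seen, differed by -0.59 and -0.62 (adjusted p = 0.267 and 0.223). Serpinb2, an inhibitor of plasminogen activators, differed by -0.19 (adjusted p = 0.601). It averaged 6.36 in the EGCG rats, below the filter level of 6.39, and 6.54 in the water rats. It was thus kept only through the water rats.

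Markers of other cell types were set beside these genes. Of 8 endothelial markers 4 were measured, and 1 of them fell, Vwf itself. Emcn differed by -0.81 (limma adjusted p = 0.144), Tie1 by -0.54 (adjusted p = 0.263) and Lyve1, of sinusoidal endothelium, by 0.02 (adjusted p = 0.982). The mean level of these 4 markers, which includes Vwf itself, ran from 8.57 to 8.66 in the EGCG rats and from 9.05 to 9.37 in the water rats. Of 10 stellate cell and fibroblast markers 7 were measured, from 8.51 to 8.85 with EGCG and from 9.21 to 9.45 with water, and 2 of them fell (Dcn and Vim). The part of these and the following cells in the values of F2r, Vwf and the other wall genes was not tested. Markers of red cells and platelets (6 of 8 measured) ran from 9.34 to 10.01 with EGCG and from 10.60 to 11.07 with water. Of these, 3 fell, all hemoglobin genes. Those of neutrophils (4 of 7) ran from 7.22 to 7.59 with EGCG and from 7.86 to 8.43 with water, and Lcn2 fell. The platelet marker Ppbp and the neutrophil marker Camp averaged 6.36 and 6.35 in the EGCG rats, below the filter level of 6.39. With means of 6.70 and 6.68 in the water rats, both were kept only through the water rats. Bile duct cell markers (6 of 7) ran from 8.42 to 9.09 with EGCG and from 9.31 to 9.70 with water, with none past the threshold. Lymphocyte markers (5 of 8) ran from 6.81 to 6.93 with EGCG and from 6.77 to 6.94 with water. Of these, 2 lay above 0 and 3 below, with a median difference of -0.03 and none past the threshold. The mean level of the 32 hepatocyte-made cascade factors also overlapped, from 10.95 to 11.47 in the EGCG rats and from 10.92 to 11.38 in the water rats.

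A2m, alpha-2-macroglobulin, a broad protease inhibitor and an acute-phase protein of the rat, had the largest difference among the coagulation inhibitors. It had 7.23, 6.76 and 6.79 in the EGCG rats and 9.91, 10.04 and 7.38 in the water rats, a difference of -2.19 (SE 0.55, limma adjusted p = 0.142). Only water_224 and water_227 were high, the rats that were high for Kng1. Without water_237 the difference was -3.10 (adjusted p = 0.000115). Over all omissions of a rat it ran from -3.10 to -1.71, with adjusted p up to 0.409. With all rats and a robust intensity trend in limma, the unadjusted p for A2m rose from 0.0022 to 0.0569 and the adjusted p to 0.519. The A2m probe was dim in the EGCG rats, with a mean bead intensity of 148. Its difference was -2.00 without background correction and -2.52 with an offset of 16. Kng2, another kininogen, had 14.56, 14.25 and 14.17 with EGCG and 14.90, 14.85 and 14.44 with water (-0.40, SE 0.18, adjusted p = 0.467). Its highest rats were again water_224 and water_227. A second, dimmer probe of Kng2 had 10.66, 10.22 and 10.04 with EGCG and 12.08, 12.21 and 10.67 with water (-1.35, SE 0.35, adjusted p = 0.16), and the mean of both probes gave -0.87 (adjusted p = 0.229). The probes of Kng2 therefore gave differences of unequal size. The dimmer one shared the pattern of the Kng1 probe (-1.47), with water_224 and water_227 high and water_237 close to the EGCG rats. Whether those probes read the same transcript was not tested.

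**Figure D5:**
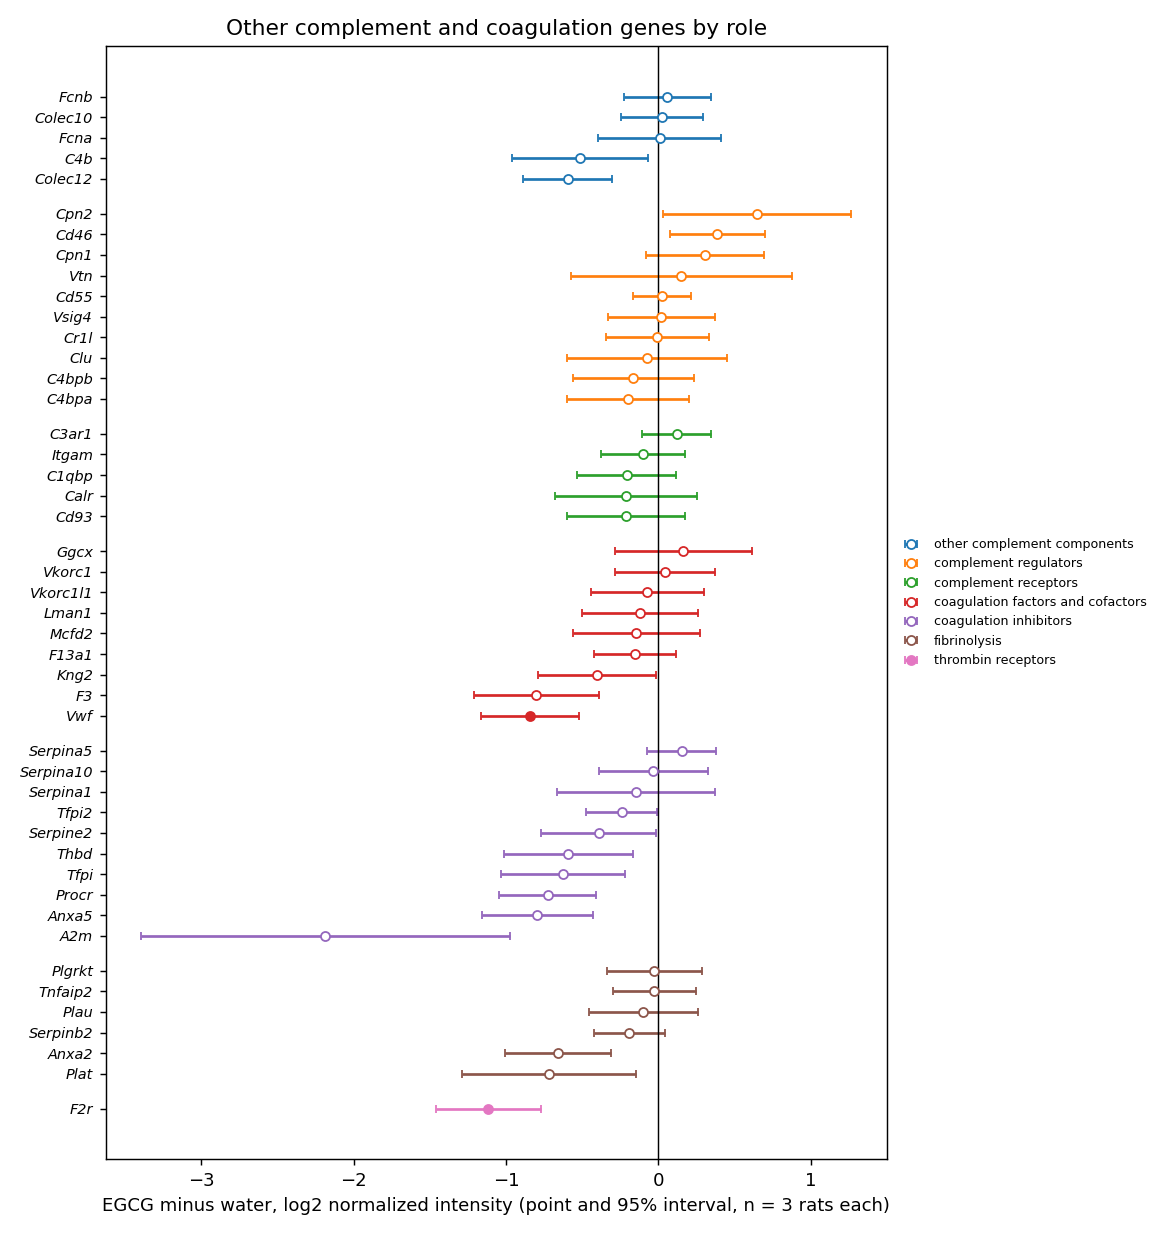
The plot gives the log2 difference (EGCG minus water, horizontal axis) and 95% interval of the 46 other measured genes of the cascades, by role, over 3 rats in each group; filled points passed the threshold. Only F2r and Vwf are filled, and 33 of the 46 points lie left of 0.

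Other complement components, regulators and receptors did not pass the threshold. C4b, which forms the classical convertase with C2, differed by -0.52 (limma adjusted p = 0.396), Colec12, a scavenger collectin, by -0.59 (adjusted p = 0.0974) and Fcnb, a ficolin, by 0.06 (adjusted p = 0.931). Colec12 averaged 6.20 in the EGCG rats, below the filter level of 6.39, and 6.80 in the water rats, so that it was kept only through the water rats. Its size followed the background offset, at -0.46 without background correction and -0.97 with an offset of 16. Among regulators, Cpn2 and Cpn1, the subunits of the carboxypeptidase that trims anaphylatoxins, differed by 0.65 and 0.31 (adjusted p = 0.461 and 0.614) and Cd46, a membrane cofactor for factor I, by 0.39 (adjusted p = 0.357). Of the receptors, C1qbp, Cd93 and C3ar1, the C3a receptor, differed by -0.21, -0.21 and 0.12 (adjusted p = 0.703, 0.763 and 0.774). C3ar1 averaged 6.50 in the EGCG rats and 6.38 in the water rats. The water mean lay below the filter level, so that C3ar1 was kept only through the EGCG rats. Complement receptors and components thus had 0 calls among 10 measured genes, and regulators 0 among 10.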

How the data were processed

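Per the labels' protocols, total RNA of non-tumor liver was extracted with TRIzol and hybridized to Illumina arrays. The authors deposited bead intensity values for 22523 probes, not normalized between arrays, and a second table of normalized intensity values. How that table was made and with which software is not given in the sources used here, and without detection p-values no probe can be called absent. The platform annotation gave 13793 probes 1 symbol, 0 probes several and 8730 none. The non-normalized values went through normexp background correction (offset 50), quantile normalization and the log2 transform. An offset shrinks the differences of dim probes. Probes below the 40th percentile of mean level (6.39) were left out, which kept 13514. Each gene is represented by its brightest probe. Differences were tested with limma (intensity trend, two-sided, no covariates, all 6 arrays) with Benjamini-Hochberg adjustment over the kept probes, and scripts were tested on simulated data; R 4.3.3 and limma 3.58.1 were used. Values are given per rat for factors whose groups did not overlap at an unadjusted p under 0.05 and for the 2 smallest p-values of each role; of other genes, up to 3 per role are named. The members, lists and motifs were chosen with earlier results of these data known. No array date or slide was given, so that batches were not tested. With 3 rats a group, the smallest two-sided p that exact permutation allows is 0.1. The alternatives are given in the closing section.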

Additional observations from a re-analysis of the deposited data

How the results depend on the processing

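No paired analysis was possible because the labels give each rat its own number. There were 17 alternatives: 6 omissions of a rat, and 11 other choices of background correction, normalization, filter, variance model and probe. For the members past the threshold (0 of 37), array weights gave 1 (Mbl2) and the omissions from 0 to 1. The related genes past the threshold (2) became 0 with median scaling and 7 with array weights, and ran from 0 to 5 over the omissions. The members whose groups do not overlap (7) became 1 with median scaling and 3 with cyclic loess, and ran from 8 to 22 over the omissions. Smaller groups part more easily, and the share over all genes also rose when a rat was left out. It was 16.5% with all 6 rats, 34.2% without EGCG_236, 26.6% without water_237 and 25.7% without water_227. With median scaling it was 12.2% and with cyclic loess 16.3%. The median difference of the members (0.07) ran from -0.04 to 0.21 over the omissions. The medians of single rats had a pooled SD of 0.27, which is a spread of rats and not of group differences. Of 948 values of the 56 named genes under the alternatives, 897 kept their direction and side of the threshold 11 newly passed, 8 no longer passed, and 32 changed sign, all in genes that never passed it. Among these, Pros1 was -0.018 with median scaling and -0.001 with cyclic loess, and with array weights Serping1 was 0.066 and Cfp 0.036. Over the omissions C2 ran from -0.13 to 0.76, Cfp from -0.20 to 0.13, F5 from -0.16 to 0.13, F2 from -0.13 to 0.21, F13b from -0.15 to 0.18, Pros1 from -0.22 to 0.15, Serpinf2 from -0.19 to 0.32, Hrg from -0.0697 to 0.58, Fcnb from -0.0567 to 0.13, C1s from -0.24 to 0.0147, Serping1 from -0.27 to 0.20 and C9 from -0.0161 to 0.13. The cause was not tested. Signal limits F7 (mean intensity 144), and Masp2, F11 and Mbl1 were also dim, at 266 to 367.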
